A study of Mus musculus with 23 samples.

Results

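The 10 genes examined encode proteins of the zymogen granule of the pancreatic acinar cell, and were taken by symbol from a fixed list of granule content, membrane and traffic proteins: *Sycn*, *Zg16*, *Tff2*, *Gp2*, *Cuzd1*, *Dmbt1*, *Rab3d*, *Rab27b*, *Vamp2* and *Vamp8*. All 10 were among the 18512 gene symbols of the count files and among the 12195 genes with enough counts to be tested. The RNA-seq data came from the head of the pancreas of C57BL/6 mice from Charles River, aged 6 to 8 weeks and weighing 20 to 25 g. The baseline group was non-injured and held 8 mice (4 female, 4 male). The injured groups had received caerulein, a cholecystokinin analogue that overstimulates acinar secretion and causes acute pancreatitis, as 8 hourly intraperitoneal injections of 50 µg/kg on each of 2 days. They were collected at day 7 (8 mice, 4 female and 4 male) and day 14 (7 mice, 3 female and 4 male), counted from a day after the last injection. Whether the baseline mice had received a vehicle is not given in the sources used here, so injection as such and caerulein cannot be told apart. Mouse 20 was not analysed here. Each library is 1 mouse and holds all cells of the tissue piece, which lay next to the duodenum.

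Libraries held 7059890 to 9567446 counts. The TMM scaling factors, which adjust for libraries dominated by a few very abundant transcripts, were 0.770 to 1.003 in baseline mice, 1.05 to 1.40 in mice of day 7 and 0.934 to 1.03 in those of day 14, so the scaling itself moved with the time point. Levels below are CPM, the counts of a gene relative to the TMM-scaled library size, and 3 counts, the least taken as detectable, correspond to 0.224 to 0.522 CPM depending on the mouse. The tissue label was checked against acinar markers: all 9 were tested, and their summed level was 230931 to 332678 CPM at baseline. Nearly all of that sum came from the enzyme genes *Cpa1*, *Pnlip*, *Cel* and *Ctrb1*.

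Acinar cells package digestive enzymes in zymogen granules, which form at the trans-Golgi network, condense, gather below the apical membrane and fuse with it when cholecystokinin or acetylcholine raises cytosolic calcium. The soluble content is held together by acidic pH and by lectin-like and small luminal proteins, the membrane carries abundant glycoproteins, and fusion is arranged by Rab GTPases on the granule and by pairing of granule VAMPs with syntaxins and SNAP proteins of the plasma membrane. Caerulein at high dose is the classical way to disturb this process, and its effects on granules in the first hours are well known.

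The sequence just upstream of the start of the content gene that changed most, *Sycn*, and of 2 membrane glycoprotein genes, *Gp2* and *Cuzd1*, is shown to put the members in their genomic context. Each window is the 250 bases before the RefSeq start on GRCm38.p6, printed on the strand of the gene. Capitals mark the E-box CANNTG, the letters bound by the acinar factors Mist1 and Ptf1a, and TGGGAA, the core bound by RBPJ and RBPJL, on either strand. The *Sycn* window is chr7:28540635-28540884 (plus strand), the *Gp2* window chr7:119459273-119459522 (minus strand) and the *Cuzd1* window chr7:131322293-131322542 (minus strand).
Sycn: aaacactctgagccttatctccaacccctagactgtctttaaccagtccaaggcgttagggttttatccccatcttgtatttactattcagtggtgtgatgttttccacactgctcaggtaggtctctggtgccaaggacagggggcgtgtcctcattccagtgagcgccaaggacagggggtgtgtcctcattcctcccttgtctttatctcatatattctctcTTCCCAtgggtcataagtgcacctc
Gp2: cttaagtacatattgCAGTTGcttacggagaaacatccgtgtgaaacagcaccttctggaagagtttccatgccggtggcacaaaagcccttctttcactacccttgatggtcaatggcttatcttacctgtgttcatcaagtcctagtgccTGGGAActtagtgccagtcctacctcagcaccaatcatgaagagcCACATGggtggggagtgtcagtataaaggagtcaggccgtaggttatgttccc
Cuzd1: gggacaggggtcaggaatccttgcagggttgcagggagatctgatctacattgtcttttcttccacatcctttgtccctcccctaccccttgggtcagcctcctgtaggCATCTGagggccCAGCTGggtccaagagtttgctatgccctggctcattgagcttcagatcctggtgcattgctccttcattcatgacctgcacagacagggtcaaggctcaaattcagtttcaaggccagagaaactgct
The *Sycn* window held no E-box and 1 RBPJ core, at -25 from the start, and a stretch of 29 bases that occurs again with 1 mismatch, its copies beginning at -119 and -83. The *Gp2* window held E-boxes at -235 and -53, an RBPJ core at -98 and the letters TATAAA at -32. The *Cuzd1* window held E-boxes at -141 and -129 and no RBPJ core. Windows were found for 5 of the 10 members, and the other windows, of *Rab3d* and *Vamp8*, held neither motif. Among all 32851 windows of the same length, 66.2% held CANNTG, 21.6% TGGGAA and 12.4% TATAAA. A match describes the letters of a window and no more.

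With TMM scaling, the content genes *Sycn*, *Zg16* and *Tff2* had lower levels at day 7 than at baseline, as did *Gp2*, *Rab3d* and *Vamp2*, and total count scaling kept this direction for *Sycn* and *Zg16* and turned it for the others. *Sycn* stood apart, with a level 0.451 times that of baseline. By edgeR's quasi-likelihood test, 6 of the 10 members had a lower level with an adjusted p of at most 0.05 (*Sycn*, *Zg16*, *Tff2*, *Gp2*, *Rab3d* and *Vamp2*), against 9.7% of all genes tested. A gene that also differed by at least 1.5-fold was counted as a differentially expressed gene (DEG). *Sycn* was the 1 member that passed as a DEG, where 5.13% of all genes were DEGs and 1.31% were DEGs with a lower level. The log2 fold change was negative for all 10 members with TMM scaling, but was positive for 8 of them, all except *Sycn* and *Zg16*, when libraries were scaled by their total counts. The median of the members was -0.34 on the log2 scale with TMM, beside 0.022 for all genes. With total count scaling the median of all genes was itself shifted by 0.47 at day 7 and by 0.22 at day 14, and relative to that median the members lay at -1.18 (*Sycn*) to -0.045 (*Rab27b*) at day 7. In bulk tissue, fewer acinar cells and less of a transcript in each acinar cell cannot be told apart.

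**Figure D1:**
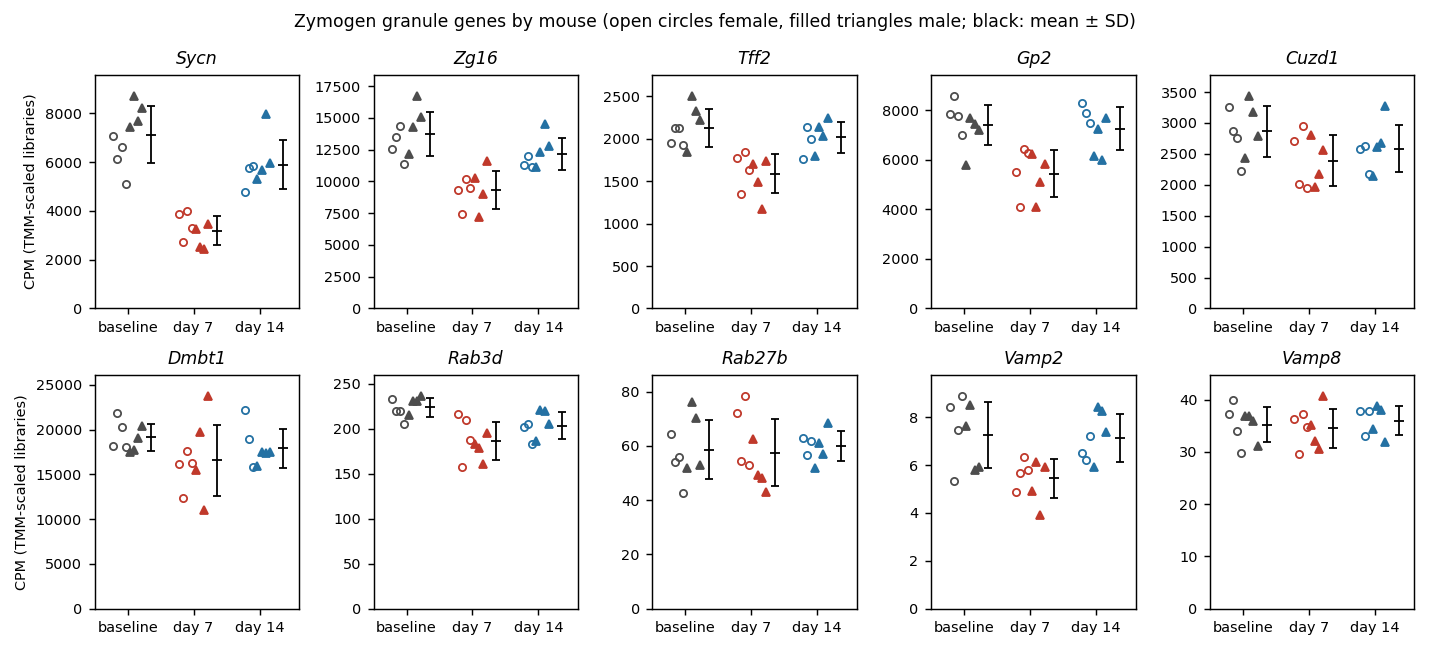
Level of the 10 granule genes in each mouse, in CPM of the TMM-scaled library on a linear axis from 0, at baseline (8 mice), day 7 (8 mice) and day 14 (7 mice). Open circles are females, filled triangles males, and the black bars the mean ± SD. The *Sycn* and *Tff2* values of day 7 lie wholly below those of baseline on this scale, and with total count scaling *Tff2* turns to a log2 fold change of 0.02.

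*Sycn* (GRCm38, chromosome 7:28540885-28542209, plus strand, protein coding as are the other members) encodes syncollin, a small protein of the granule lumen that sits on the inner face of the granule membrane. Its level was 5110.4 to 8718 CPM (median 7247) in the baseline mice, 2428 to 3983 CPM (median 3273) in those of day 7 and 4757 to 7956 CPM (median 5770.3) in those of day 14. All 8 mice of day 7 lay below every baseline mouse, and all 7 mice of day 14 lay above every mouse of day 7 but within or just below the range of baseline, with 1 of 7 below it. *Sycn* fell by 54.9% at day 7, and the difference was larger than the spread between mice (log2 fold change -1.15, SE 0.12, adjusted p = 1.77e-07). Its log2 fold change was -0.70 with total count scaling, and it was a DEG there too. Non-overlapping groups with the lower level at day 7 were found for 1.59% of all genes and for 2 members, *Sycn* and *Tff2*. At day 14 the log2 fold change against baseline was -0.28 (SE 0.12, adjusted p = 0.301), and against day 7 it was 0.87 (SE 0.12, adjusted p = 1.67e-04). As a share of all counts, with no scaling factor, *Sycn* made up 0.513% to 0.680% of a baseline library, 0.3001% to 0.447% of a day 7 library and 0.477% to 0.743% of a day 14 library. The groups of baseline and day 7 therefore did not overlap on that scale either.

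*Zg16* (chromosome 7:127050156-127087328, minus strand) encodes a lectin-like protein of the granule matrix that helps enzyme aggregates bind the granule membrane. Its level was 11362 to 16747 CPM (median 13903) in the baseline mice, 7229.6 to 11649 CPM (median 9385) in those of day 7 and 11109 to 14565 CPM (median 11988) in those of day 14. In 7 of the 8 mice of day 7 it was below every baseline mouse, and the highest, mouse 16, overlapped with them. *Zg16* fell at day 7 with TMM (log2 fold change -0.56, SE 0.091, adjusted p = 1.01e-04), just short of the 1.5-fold threshold of 0.585 on the log2 scale, and the log2 fold change was -0.12 (adjusted p = 0.0762) with total count scaling. It became a DEG at day 7 when mouse 4 or 5 of baseline or mouse 11 or 16 of day 7 was left out, with log2 fold changes of -0.59 to -0.60. At day 14 its log2 fold change was -0.19 against baseline (adjusted p = 0.399) and 0.38 against day 7 (adjusted p = 0.0385).

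*Tff2* (chromosome 17:31141049-31144282, minus strand) encodes trefoil factor 2, a small secreted peptide best known from gastric mucous cells and the glands of the duodenum. Its level was 1839 to 2504 CPM (median 2126) in the baseline mice, 1172 to 1838 CPM (median 1666) in those of day 7 and 1759 to 2238 CPM (median 2033) in those of day 14. All 8 mice of day 7 were below every baseline mouse by TMM-scaled level, with the nearest pair at 1838 and 1839 CPM (log2 fold change -0.42, SE 0.087, adjusted p = 0.00116). With total count scaling the direction turned and no difference was detected (0.02, adjusted p = 0.708), and the share of all counts was 0.161% to 0.193% at baseline and 0.145% to 0.205% at day 7. Because the tissue lay next to the duodenum, genes of duodenal and gastric epithelium were examined beside *Tff2*. Of 16 listed, 12 were in the files and 1 had enough counts to be tested and was a DEG with a lower level at day 7. Their summed level was 1.87 to 4.90 CPM in any mouse, and no mouse had more than 1 count of *Tff1*, 4 of *Muc6* or 3 of *Muc2* and *Tff3*. The highest in the list were *Vil1* and *Fcgbp* with up to 19 counts, *Lgals4* with up to 12 and *Apoa4* with up to 5.

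The membrane glycoprotein genes had smaller differences. *Gp2* (chromosome 7:119442537-119459285, minus strand) encodes glycoprotein 2, the major glycoprotein of the granule membrane, held there by a lipid anchor. Its level was 5803 to 8592 CPM (median 7561) in the baseline mice, 4099 to 6437 CPM (median 5677) in those of day 7 and 5985 to 8283 CPM (median 7496) in those of day 14, and 4 of the 8 mice of day 7 were below all of baseline. *Gp2* fell at day 7 with TMM (log2 fold change -0.44, SE 0.095, adjusted p = 0.00164) but had a log2 fold change of 0.0027 with total count scaling (adjusted p = 0.970). It was back within the baseline range at day 14 in every mouse, with a log2 fold change of -0.02 against baseline (adjusted p = 0.965) and 0.42 against day 7 (SE 0.098, adjusted p = 0.0257).

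*Cuzd1* (chromosome 7:131308554-131322292, minus strand) encodes a membrane protein with CUB and zona pellucida domains. Its level was 2228 to 3439.6 CPM (median 2833) in the baseline mice, 1950.2 to 2945 CPM (median 2363) in those of day 7 and 2149 to 3278 CPM (median 2613) in those of day 14, and the groups overlapped. The difference at day 7 did not pass the adjusted p (log2 fold change -0.26, SE 0.11, adjusted p = 0.0826), and the adjusted p was 0.0324 to 0.0476 when mouse 4 or 5 of baseline or mouse 11 of day 7 was left out. *Dmbt1* (chromosome 7:131032053-131121630, plus strand) encodes a large scavenger receptor glycoprotein, known in mouse pancreas as muclin. Its level was 17545 to 21806 CPM (median 18632) in the baseline mice, 11083 to 23746 CPM (median 16233) in those of day 7 and 15882 to 22249 CPM (median 17453) in those of day 14. The mice of day 7 lay on both sides of baseline, 5 below every baseline mouse and 1, mouse 16, above every one of them, and the coefficient of variation was 24.2% against 8.04% at baseline. No difference was detected for *Dmbt1* (log2 fold change -0.21, SE 0.11, adjusted p = 0.206), and the adjusted p was 0.0350 without mouse 16. With total count scaling the log2 fold changes of *Cuzd1* and *Dmbt1* at day 7 were 0.19 and 0.23, each with an adjusted p of at most 0.05 in the opposite direction. With that scaling 76.6% of all genes passed the adjusted p. The median of all genes was 0.47, and *Cuzd1* and *Dmbt1* lay at -0.28 and -0.24 relative to it.

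*Rab3d* (chromosome 9:21907491-21918192, minus strand) encodes the main Rab3 GTPase of exocrine secretory granules. Its level was 206 to 236 CPM (median 225) in the baseline mice, 158 to 216 CPM (median 185) in those of day 7 and 183 to 221 CPM (median 205) in those of day 14, and its coefficient of variation at baseline, 4.67%, was the lowest of the 10 members. In 6 of the 8 mice of day 7 it was below every baseline mouse. *Rab3d* fell at day 7 with TMM (log2 fold change -0.27, SE 0.064, adjusted p = 0.00428), and the direction turned to 0.18 (adjusted p = 0.00102 in edgeR) with total count scaling. *Rab27b* (chromosome 18:69979131-70141605, minus strand) encodes the GTPase that, with Rab3d, is found on granules ready to fuse. Its level was 42.8 to 76.1 CPM (median 55.0) in the baseline mice, 43.1 to 78.3 CPM (median 53.6) in those of day 7 and 51.8 to 68.6 CPM (median 61.0) in those of day 14. Groups overlapped throughout and no difference was detected at day 7 (log2 fold change -0.03, SE 0.12, adjusted p = 0.899), while total count scaling gave 0.43 (adjusted p = 3.79e-04). The median of all genes with that scaling was 0.47, above the values of *Rab3d* and *Rab27b*.

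Of the granule v-SNAREs, *Vamp8* (chromosome 6:72385223-72390703, minus strand) encodes the one that carries most regulated enzyme secretion in acinar cells, and *Vamp2* (chromosome 11:69088490-69092384, plus strand) one found on a smaller set of granules and abundant in neurons and endocrine cells. The level of *Vamp8* was 29.8 to 39.9 CPM (median 36.4) in the baseline mice, 29.6 to 40.7 CPM (median 34.9) in those of day 7 and 32.0 to 38.7 CPM (median 37.8) in those of day 14. These ranges overlapped almost wholly and no difference was detected (log2 fold change -0.03, SE 0.071, adjusted p = 0.792), while total count scaling gave 0.42 (adjusted p = 1.87e-06), beside 0.47 for the median of all genes. The level of *Vamp2* was 5.35 to 8.88 CPM (median 7.55) in the baseline mice, 3.91 to 6.34 CPM (median 5.75) in those of day 7 and 5.90 to 8.43 CPM (median 7.22) in those of day 14, which rests on 34 to 76 counts in a mouse. *Vamp2* fell at day 7 with TMM (log2 fold change -0.41, SE 0.12, adjusted p = 0.0186), 3 of the 8 mice were below every baseline mouse, and the log2 fold change was 0.03 (adjusted p = 0.826) with total count scaling. Islet genes, a list that includes endocrine cells known to use VAMP2, had a summed level of 127 to 547 CPM at baseline and 397 to 1141 CPM at day 7, and 4 of the 7 tested were DEGs with a higher level. Their part in the *Vamp2* level was not tested.

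With TMM scaling, no difference from baseline was detected for any member at day 14, but some mice still lay below the baseline range. Below every baseline mouse were 5 of 7 mice for *Rab3d*, 5 for *Dmbt1* (1 lay above), 3 for *Zg16*, 2 each for *Tff2* and *Cuzd1* and 1 for *Sycn*. For the other members it was 0. Of the 10, 0 were DEGs and 0 had an adjusted p of at most 0.05 by edgeR, where 0.787% of all genes were DEGs and 1.57% passed the adjusted p alone. DESeq2 also gave 0 DEGs, and 2 members had an unadjusted p under 0.05 in edgeR, *Sycn* (0.0282) and *Rab3d* (0.0440), where 13.3% of all genes did. The median log2 fold change was -0.088 with TMM and 8 of the 10 were negative, while with total count scaling 1 of the 10, *Sycn*, was negative. Between day 14 and day 7, *Sycn* was the 1 member that was a DEG, where 0.205% of all genes were DEGs with the higher level at day 14, and *Sycn*, *Zg16* and *Gp2* passed the adjusted p alone, against 1.01% of all genes. In a fit of only the mice of day 7 and day 14, *Zg16* and *Gp2* missed it (adjusted p = 0.0613 and 0.0562). All 10 members were higher at day 14 than at day 7 with TMM (median 0.23), and 5 of them, *Cuzd1*, *Dmbt1*, *Rab3d*, *Rab27b* and *Vamp8*, turned to the opposite direction with total count scaling. *Tff2* had a log2 fold change of 0.34 against day 7 with an adjusted p of 0.0535 in edgeR and 0.00588 in DESeq2. The comparisons of day 7 and day 14 with baseline share the same 8 baseline mice.

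**Figure D2:**
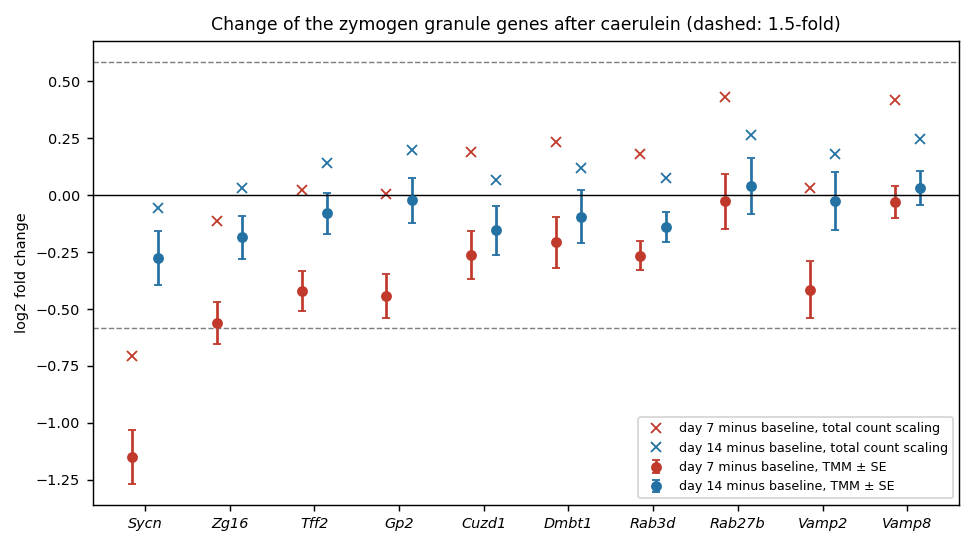
Log2 fold change of each granule gene against baseline at day 7 (red) and day 14 (blue). Circles with bars are the TMM-scaled fit of edgeR ± SE (8, 8 and 7 mice), crosses the same fit with total count scaling, and dashed lines the 1.5-fold threshold. *Sycn* at day 7 is beyond the threshold with both scalings, and the crosses of 8 genes lie above 0 at day 7 where the circles lie below it.

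The levels of the members spanned a wide range. Per kilobase of exonic length, the baseline medians were 13033 CPM for *Sycn*, 11061 for *Zg16*, 3784 for *Gp2*, 3640.04 for *Tff2*, 2640.2 for *Dmbt1* and 1256 for *Cuzd1*. The ranges of *Sycn* and *Zg16* overlapped, as did those of *Gp2* and *Tff2*, so their order is not resolved. The traffic and fusion genes were far below, with 53.7 CPM per kilobase for *Rab3d*, 15.7 for *Vamp8*, 5.15 for *Rab27b* and 1.98 for *Vamp2*, and no neighbours among these overlapped. The exonic length joins all annotated exons of a gene, 2311 bases for *Vamp8* and 10679 for *Rab27b*. In CPM the baseline median of *Rab27b* (55.0) was above that of *Vamp8* (36.4), so their order depends on the length used. At day 7 the median of *Zg16* (7467) was above that of *Sycn* (5887), again with overlapping ranges. By the number of counts over all mice, *Dmbt1* was the 15th and *Zg16* the 18th most abundant of the 18512 symbols, and *Vamp2* the 7541st. Together the 10 members took up 4.52% ± 0.225 (SD, n = 8) of all baseline counts. In mice of day 7 they took up 4.51% ± 0.379 (SD, n = 8), and in those of day 14 they took up 4.78% ± 0.267 (SD, n = 7). The share of 18 acinar enzyme genes was 61.4% ± 2.24 (SD, n = 8) in baseline mice. It was 52.2% ± 2.19 (SD, n = 8) in mice of day 7 and 57.1% ± 1.61 (SD, n = 7) in those of day 14.

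The enzymes the granules carry were also measured in the same mice. Their levels depend on the scaling, but the difference of a member from them within a mouse hardly does. At day 7, 17 of the 18 enzyme genes had a lower level with an adjusted p of at most 0.05 and 11 were DEGs with a lower level, 1 was a DEG with a higher level, and the median log2 fold change was -0.69 (range -0.94 to 0.67), all with TMM. With total count scaling 16 of the 18 were still lower, 12 of them by the adjusted p, and the median was -0.24. At day 14 the median was -0.28, 6 had a lower level by the adjusted p and 0 were DEGs by edgeR. An unadjusted p under 0.05 was found for 16, where 13.3% of all genes had one. *Sycn* minus the mean of the enzymes, as log2 CPM, was -1.39 ± 0.121 (SD, n = 8) in baseline mice. It was -1.95 ± 0.173 (SD, n = 8) in mice of day 7 and -1.40 ± 0.174 (SD, n = 7) in those of day 14. All 8 mice of day 7 were below every baseline mouse, and the difference of -0.56 had p = 1.55e-04 in an exact two-sided permutation test, the smallest p that 8 against 8 mice can give (adjusted over 3 comparisons, 4.66e-04). *Sycn* was the 1 member tested in this way. It was chosen with earlier results of these data known, and the adjustment does not cover that choice. At day 14 the difference from baseline was -0.017 (exact permutation p = 0.829), and day 14 lay 0.54 above day 7 (exact permutation p = 3.11e-04).

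The other members did not follow *Sycn* on this scale, on which their values are given without a test. *Zg16* stayed level with the enzymes, its mean at day 7 being 0.034 above that of baseline. The means of *Gp2*, *Tff2* and *Vamp2* were 0.15, 0.17 and 0.21 above, those of *Cuzd1*, *Rab3d* and *Dmbt1* 0.33, 0.33 and 0.36 above, and those of *Rab27b* and *Vamp8* 0.57 above. For *Rab3d* and *Vamp8* all 8 mice of day 7 were above every baseline mouse, and for *Rab27b* and *Cuzd1* 7 of 8 were. The enzymes themselves fell, with a median log2 fold change of -0.69 with TMM beside 0.022 for all genes. A gene whose level did not change therefore also lies above baseline on this scale. With TMM, *Rab27b* and *Vamp8* each had a log2 fold change of -0.03. The share of all genes whose groups separate on this scale was not determined. By these means *Sycn* was the 1 member that was lower relative to the mean of the listed enzymes at day 7. The log2 fold changes of single enzymes ran from -0.94 to 0.67 with TMM, beside -1.15 for *Sycn*. Single enzymes were not set against that mean.

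**Figure D3:**
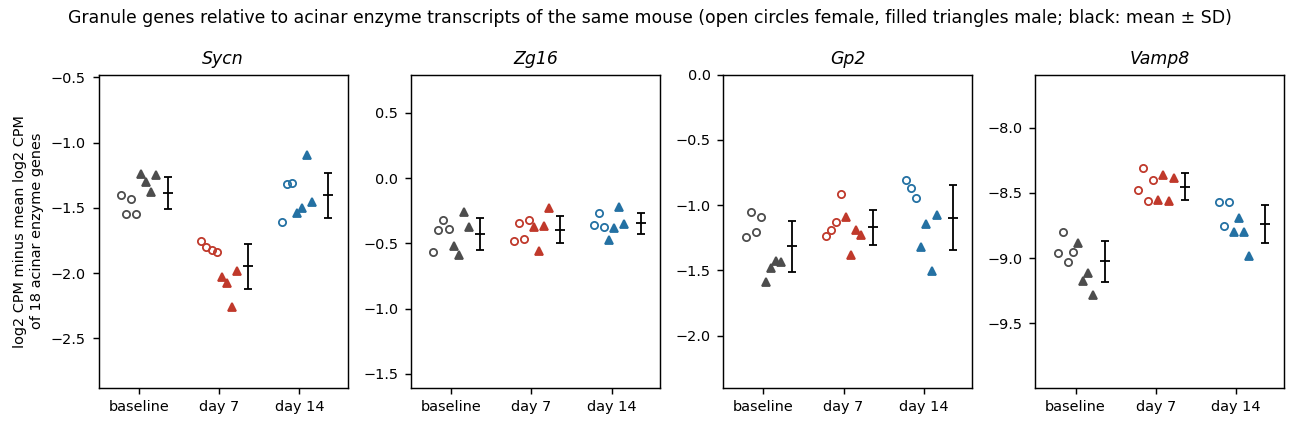
Log2 CPM of 4 granule genes minus the mean log2 CPM of 18 acinar enzyme genes in the same mouse, by time point, with panels of equal height in log2 units. Open circles are females, filled triangles males and black bars the mean ± SD (8, 8 and 7 mice). *Sycn* drops at day 7 and returns at day 14, *Zg16* stays level, and *Vamp8* is higher in all 8 mice of day 7 than at baseline. The enzyme genes themselves fell at day 7 (median log2 fold change -0.69 with TMM), and the log2 fold change of *Vamp8* was -0.03.

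Sex was compared because both sexes were collected at each time point. Of the 10 members, 0 differed between males and females over all time points by edgeR, where 0.23% of all genes were DEGs. The count was also 0 in DESeq2, and 0 members had an unadjusted p under 0.05 in edgeR, where 1097 of 12195 genes did. The interaction of sex with time was significant for 0 members at day 7, where 0.00773% of all genes passed the adjusted p, and for 0 at day 14, where 0% did, and DESeq2 gave 0 members at both. An unadjusted interaction p under 0.05 in edgeR was found at day 14 for 0 members, where 474 of 12933 genes had one. At day 7, 703 of 12933 genes had one, 2 of them members. These were *Sycn* and *Rab27b*. *Sycn* had log2 fold changes of -0.85 in females (adjusted p = 0.00152) and -1.46 in males (adjusted p = 1.94e-06). Its interaction was -0.61 (unadjusted p = 0.00732, adjusted p = 0.673). *Rab27b* had log2 fold changes of 0.24 in females and -0.31 in males (interaction -0.55, adjusted p = 0.878). The median *Sycn* level at baseline was 6375 CPM in 4 females and 7956 CPM in 4 males, and at day 7 it was 3582 CPM in females and 2884 CPM in males.

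Other genes of granule traffic and exocytosis were examined as lists. Of 50 genes listed as SNAREs and partners, Rabs and effectors, and calcium sensors and granule transporters, 45 were tested, and at day 7 their median log2 fold change was -0.020 with 25 negative. By the adjusted p, 5 differed with TMM, 3 lower and 2 higher, where 18.6% of all genes passed in either direction and 9.7% with the lower level. Of the 45, 2 were DEGs, a share near the 5.13% of all genes in either direction. Both had the lower level, where 1.31% of all genes were DEGs with a lower level. When scaled by total counts, 37 of the 45 passed the adjusted p, all with the higher level, 2 were negative and the median was 0.43, where 76.6% of all genes passed in either direction. *Syt3*, a synaptotagmin that binds calcium, had levels of 6.59 to 9.83 CPM (median 7.90) at baseline and 2.36 to 6.78 CPM (median 5.24) at day 7. Its log2 fold change was -0.71 (SE 0.16, adjusted p = 0.00247), with 7 of 8 day 7 mice below the baseline range. *Slc30a2*, a zinc transporter of secretory granules, had 8.87 to 22.3 CPM (median 15.8) at baseline and 6.43 to 13.7 CPM (median 8.25) at day 7. Its log2 fold change was -0.72 (SE 0.20, adjusted p = 0.0126), with 5 of 8 day 7 mice below the baseline range. At day 14, 0 of the 45 were DEGs and 0 passed the adjusted p by edgeR. An unadjusted p under 0.05 was found for 6, where 13.3% of all genes had one. Of the SNAREs, 16 of 18 were tested and 1, *Nsf*, the ATPase that separates spent SNARE complexes, passed the adjusted p with the lower level at day 7 (log2 fold change -0.31, adjusted p = 0.00732). Of the Rabs and effectors, *Rab5a*, a GTPase of early endosomes, and *Rab6a*, a GTPase of the Golgi, passed with the higher level at day 7 (log2 fold changes 0.27 and 0.20, adjusted p = 0.0119 and 0.0258), and 2 and 7 of the 8 mice were above every baseline mouse. After scaling by total counts *Syt3* and *Slc30a2* each had -0.28 at day 7 and no longer passed (adjusted p = 0.0934 and 0.203), and *Nsf* turned to 0.15 (adjusted p = 0.135).

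Most pairs of members were positively correlated between mice, and pairs of other genes were not examined for comparison. Over the 23 mice the Pearson r of log2 CPM for the 45 pairs of members had a median of 0.50 (range -0.028 to 0.90), and 44 of the 45 were positive. The highest was that of *Sycn* with *Zg16* (0.90), followed by *Sycn* with *Tff2* (0.88). After the mean of each group of sex and time was subtracted, the median was again 0.50 (range -0.15 to 0.83), and when libraries were scaled by their counts outside the 20 most abundant genes it was 0.32. These mice share 1 scaling factor each across all members, which makes such correlations a description and no test. The genes outside the list most like *Sycn* over 23 mice were *Rnase1* (0.96), *Ctrl* (0.95) and *Cpa1* (0.95), all enzyme genes, and for *Zg16* they were *Cel*, *Cela1* and *Rnase1* (each 0.93). For *Tff2* they were *Rnase1*, *Aes* and *Ctrl* (0.90 to 0.91), for *Gp2* *Smpdl3a*, *Klk1* and *Qdpr* (0.87 to 0.88), and for *Cuzd1* *Sec11c*, *Ero1lb* and *Bag1* (0.86 to 0.88). For *Dmbt1* they were *Ptger3*, *Arhgap21* and *Sel1l3* (0.79 to 0.84), for *Rab3d* *Egf*, *Srpr* and *Cmtm4* (0.93 to 0.97) and for *Rab27b* *Tmem97*, *Dcaf10* and *Pdia2* (0.80 to 0.84). *Vamp2* was most like *Fbxw11*, *Rn45s* and *Hcfc1r1* (0.74 to 0.75), and *Vamp8* like *Ppapdc3* (0.78) and *Atp6v0c* (0.72), a gene whose pseudogene copy holds the same counts in every mouse.

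**Figure D4:**
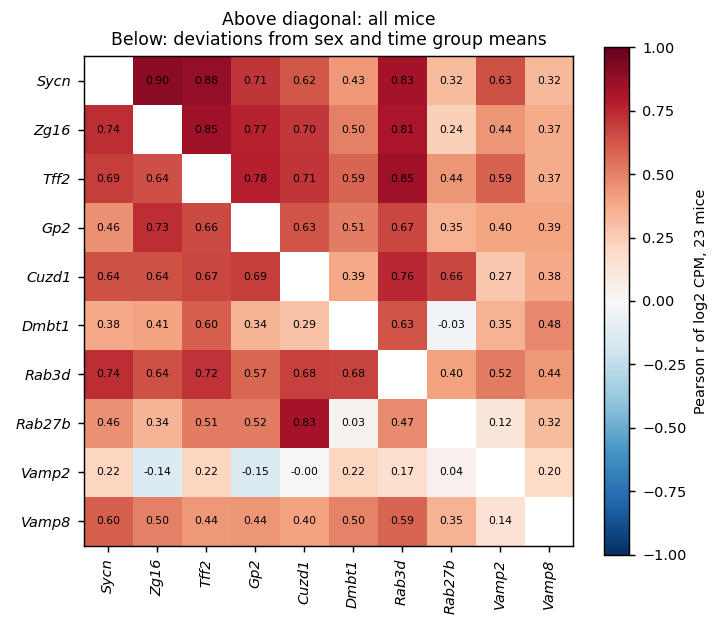
Pearson r of log2 CPM between the granule genes over 23 mice, above the diagonal across all mice and below it after the mean of each group of sex and time was subtracted. Colour runs from blue (-1) through white (0) to red (1). The content genes *Sycn*, *Zg16* and *Tff2* form a deep red block above the diagonal (0.85 to 0.90), and the row of *Vamp2* below it is the palest. The block is not particular to content genes, as *Rab3d* has 0.81 with *Zg16*, 0.83 with *Sycn* and 0.85 with *Tff2*.

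Genes of other cells of the tissue moved with the time point beside the members. Summed fibroblast markers were 337 to 673 CPM at baseline and 634 to 1206 CPM at day 7, with 7 of 9 as DEGs with a higher level. Summed macrophage markers were 56.7 to 212 CPM and 135 to 313 CPM, with 8 of 10 as DEGs with a higher level, and 4 of 10 ductal markers were higher DEGs while the 4 with negative log2 fold changes did not pass the adjusted p. Of 6 endothelial markers, 4 were negative at day 7, 2 had a lower level by the adjusted p and 1 was a DEG with a lower level, with summed levels of 81.5 to 134 CPM at baseline and 67.1 to 114 CPM at day 7. Of mast cells and platelets, which also use *Vamp8* and *Rab27b*, 3 of 8 markers were tested and 0 were DEGs by edgeR, with summed levels of 32.2 to 39.5 CPM at baseline and 25.5 to 47.6 CPM at day 7. Most of that sum was 1 marker, *Kit*, with medians of 31.8 CPM at baseline and 33.1 CPM at day 7. The part of these cells in the member levels was not tested. Of the 9 acinar markers, 7 had a lower level by the adjusted p at day 7 and 3 were DEGs with a lower level. The markers *Cpa1*, *Pnlip*, *Cel* and *Ctrb1* are also in the enzyme list, so the lists are not separate observations.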

How the data were processed

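The deposited values were counts of read fragments per gene symbol, 1 file per mouse. Per the labels and the methods, the authors depleted total RNA of ribosomal RNA, made stranded libraries, sequenced paired reads, trimmed them, aligned them to mm10 with STAR 2.5.2a and counted with featureCounts, whose strand setting is not given in the sources used here. No member shares exonic bases with another gene in GENCODE vM21 for GRCm38, which gave positions and exonic lengths. Sequences are from RefSeq, GRCm38.p6.

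Counts were tested with edgeR 4.0.16 (R 4.3.3, limma 3.58.1) on genes kept by filterByExpr, with TMM scaling, estimateDisp, glmQLFit with robust = TRUE and glmQLFTest. One fit of all 23 mice had sex as a covariate for the time points, and another the time point for sex; the interaction was fitted over 6 groups (12933 genes). P-values are two-sided and adjusted by Benjamini-Hochberg over all genes tested. The thresholds for a DEG were 0.05 for the adjusted p and 1.5 for the fold change, and the interaction needed only the former. Each SE was derived from the test itself (log2 fold change over the root of the F statistic). Log2 CPM used a prior count of 2. Alternatives were DESeq2 1.42.0, other scalings and filters, only the mice compared, no sex covariate, no fold threshold and leaving out each mouse. The fits were tested on simulated data with changes planted in randomly drawn genes, which cannot test the choice of scaling. No batch is given in the labels. All 23 libraries matched their sex label. The spread between mice holds biological and technical variation, and the floor of 3 counts covers counting error only.

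The members and lists were chosen with earlier results of these data known. Named beside the members were the machinery genes that were DEGs and, for each member, the 3 genes most like it; *Nsf*, *Rab5a*, *Rab6a* and the single markers were named after their values were seen.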

Additional observations from a re-analysis of the deposited data

Results flagged for a closer look

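*Sycn* at day 14 had 1 mouse apart from the others. Mouse 23 had 7960 CPM and the next highest of the 7 mice had 5940 CPM, a gap of 0.629 of the whole range of the group. The highest and the lowest value were examined in 30 groups, 10 members at 3 time points, and chance alone flags about 1 in 20 groups. Without mouse 23 no call for *Sycn* changed.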

How the results depend on the processing

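No paired analysis was possible because the mouse numbers are unique and no number is shared between groups. *Sycn* was a DEG at day 7 in every alternative run, with log2 fold changes of -1.21 to -1.09 when 1 mouse was left out and -0.70 with total count scaling, which gave -0.057 at day 14 in place of -0.28. The scaling decided most other directions. With total count scaling, the log2 fold changes at day 7 were 0.024 (*Tff2*), 0.0027 (*Gp2*), 0.19 (*Cuzd1*), 0.23 (*Dmbt1*), 0.18 (*Rab3d*), 0.43 (*Rab27b*), 0.032 (*Vamp2*) and 0.42 (*Vamp8*). At day 14 they were 0.033 (*Zg16*), 0.14 (*Tff2*), 0.20 (*Gp2*), 0.068 (*Cuzd1*), 0.12 (*Dmbt1*), 0.075 (*Rab3d*) and 0.18 (*Vamp2*), and for day 14 against day 7 they were -0.12 (*Cuzd1*), -0.11 (*Dmbt1*), -0.11 (*Rab3d*), -0.17 (*Rab27b*) and -0.17 (*Vamp8*). Without the 20 most abundant genes, *Rab27b* (0.052) and *Vamp8* (0.043) were reversed at day 7, and *Vamp2* had an adjusted p of 0.0503. Total count scaling gave 10 machinery DEGs at day 7 and 1 at day 14, and 1 enzyme DEG at day 7. By the adjusted p alone there were 6 members at day 7, 3 members for day 14 against day 7, 5 machinery genes at day 7 and 6 enzymes at day 14. Leaving out 1 mouse gave 1 to 2 member DEGs at day 7. It gave ranges around 0 for *Rab27b* at day 7 (-0.10 to 0.0396) and, at day 14, for *Gp2* (-0.061 to 0.0086), *Rab27b* (-0.0205 to 0.11), *Vamp2* (-0.082 to 0.021) and *Vamp8* (-0.0018 to 0.056). *Sycn* relative to the enzymes at day 14 was -0.069 to 0.017 when 1 mouse was left out and 0.0449 (exact permutation p = 0.579) with the summed enzyme CPM. For day 14 against day 7 the adjusted p of *Zg16* ranged from 0.0206 to 0.0935 and that of *Gp2* from 0.0131 to 0.0692 when 1 mouse was left out. It was over 0.05 for *Zg16* without mouse 10, 12, 14, 15, 17, 18, 19, 22, 23 or 24 and for *Gp2* without mouse 14, 15, 17, 18, 22 or 24, and under 0.05 for *Tff2* without mouse 4, 5, 6, 9, 11 or 21. With only the mice compared 1 member, *Sycn*, passed. Genes with at least 10 counts in every mouse gave 348 DEGs at day 7 against 626, and total count scaling 3695, of which 21 were lower against 160 of 626. The cause of these changes was not tested. Depth limits *Vamp2* most, with 34 to 76 counts in a mouse.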

Other observations

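After the mean of each group of sex and time was subtracted, the genes most like the members were in part others than over all mice. *Cuzd1* was most like *Spink1*, which encodes a trypsin inhibitor (r 0.97), *Gp2* was most like *Klk1*, a kallikrein (0.97), and *Rab3d* was most like *Srpr*, a subunit of the signal recognition particle receptor (0.98). *Dmbt1*, the member with the largest spread at day 7, was most like *Ptger3* (0.89), *Reg3d* (0.85) and *Reg1* (0.84). These values are over 23 mice, were picked from all tested genes as the highest, and are given without a test.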
